A study of Mus musculus with 12 samples.

Results

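Immature CD8 single-positive thymocytes (ImCD8) were set against immature CD4 single-positive thymocytes (ImCD4) in the control libraries of a population RNA-seq study of the zinc finger factor genes Zfp148 and Zfp281. The libraries were chosen by their titles: 3 of the series' 12 libraries are titled control ImCD8 and 3 are titled control ImCD4, and the 6 were compared over all genes. All libraries came from mouse thymus, from animals in which both genes carry floxed alleles (Zfp148 fl/fl; Zfp281 fl/fl). The control ImCD4 libraries are labelled Cd4-Cre negative. The control ImCD8 libraries are labelled Cd4-Cre+, and those titled Zfp148/281 dKO (double knockout) ImCD8 are labelled Cd4-Cre negative, so for ImCD8 the genotype label and the title are opposite. Cd4-Cre is driven by Cd4 promoter sequence and is active from the stage at which thymocytes carry both coreceptors. Ages and sexes are not in the labels used here.

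The ImCD4 gate took CD44 low, CD4+ CD8- cells that were H2-Kb negative and CD69+. The ImCD8 gate took CD44 low, CD8+ CD4- cells that were TCRb+ and CD69+, and names no H2-Kb condition. The gates therefore differ in a maturity marker as well as in the coreceptors, and lineage and maturity cannot be told apart in this comparison. The libraries are bulk populations, so a lower level can mean fewer cells of a type or less RNA per cell, and these cannot be told apart.

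As background, thymocytes that carry both CD4 and CD8 are positively selected on MHC and then take 1 of the 2 lineages. Cells selected on MHC class II keep CD4 and turn on Zbtb7b (ThPOK), which holds off the CD8 programme, while cells selected on MHC class I turn on Runx3, which silences Cd4 and opens genes of cytotoxic cells. Before export, selected cells lose CD69, gain surface H2-K, respond to interferon, divide, and turn on Klf2 and the egress receptor S1pr1.

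The 6 control libraries held 7315833 to 9654004 reads counted to genes, and depth overlapped between the groups (exact permutation test on the difference in means, two-sided p = 0.9; with 3 against 3 the smallest p is 0.1). Expression is given as CPM, the read count scaled to a common library size after TMM scaling (trimmed mean of M values), in the order replicate 1, 2 and 3. Correlations of log2 CPM between control libraries of 1 group were 0.985 to 0.991. The first principal component of the 6 libraries held 80.4% of the variance and separated ImCD8 from ImCD4. Replicate 3 of each group stood apart from its group's other libraries on a later component. In ImCD8 it was highest for several effector genes and lowest for mitosis genes, and in ImCD4 it was lowest for Cd8a, and values that moved by over 1.5 times, or calls that were lost, without a library are given beside the result. The share of counts in ribosomal protein genes was 2.10% to 2.20% in ImCD4 and 3.22% to 3.34% in ImCD8 without overlap (exact permutation p = 0.1).

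The targeted genes were checked first. Zfp281 (chr1:136624901-136630053, plus strand; mm10, GENCODE) was at 457, 441 and 562 CPM in ImCD4 and 128, 117 and 112 CPM in ImCD8. In the dKO libraries it was at 18.4, 16.2 and 21.4 CPM in ImCD4 and 14.9, 13.3 and 10.2 CPM in ImCD8. Zfp148 was at 177, 182 and 182 CPM in ImCD4 and 162, 171 and 163 CPM in ImCD8, against 67.7, 68.9 and 62.98 CPM and 45.6, 62.8 and 56.3 CPM in the dKO libraries. Within each gate the dKO libraries all lay below the controls for both genes, so the levels go with the titles and against the genotype labels of ImCD8. Within the controls Zfp281 was lower in ImCD8 (log2 fold change -2.03 ± 0.12, adjusted p = 2.49e-09), while Zfp148 did not pass the test (log2 fold change -0.12 ± 0.09, adjusted p = 0.259). Fold changes are ImCD8 over ImCD4 with their standard error, from edgeR's quasi-likelihood test with Benjamini-Hochberg adjustment over all genes tested.

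The sorted coreceptors matched the gates, which makes them a check and no finding. Cd4 was at 1102, 1089 and 1154 CPM in ImCD4 and 4.71, 3.10 and 1.38 CPM in ImCD8. Cd8a was at 67.6, 69.7 and 22.997 CPM in ImCD4 and 1613, 1659 and 1606 CPM in ImCD8, and Cd8b1 at 122, 119 and 56.7 CPM in ImCD4 and 1992, 2088 and 2109 CPM in ImCD8. ImCD4 replicate 3 held the lowest Cd8a and Cd8b1. H2-K1, which encodes the H2-K antigen used in the ImCD4 gate only, was at 258, 252 and 249 against 2641, 2616 and 3019 CPM, ImCD4 first here and below. Cd69, a marker of recent selection on which both gates were positive, was lower in ImCD8 at 652, 555 and 663 against 207, 192 and 213 CPM (log2 fold change -1.61 ± 0.10, adjusted p = 6.79e-09). Cd44 was at 27.1, 22.7 and 22.7 against 25.997, 23.8 and 28.7 CPM and did not pass (adjusted p = 0.551). Trbc1 and Trbc2, constant genes of the TCRb chain that only the ImCD8 gate names, were slightly lower in ImCD8. Their log2 fold changes were -0.31 (adjusted p = 0.029) and -0.42 (adjusted p = 1.48e-04).

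Between the control groups, 6058 of 13383 genes tested (45.3%) passed an adjusted p of 0.05: 3097 (23.1%) were higher and 2961 (22.1%) lower in ImCD8. The median log2 fold change over all genes tested was -0.01. Most of the calls were under 2-fold. A fitted change of at least 2-fold was seen for 1075 of the higher and 872 of the lower genes, and of at least 16-fold for 137 and 67. When the test itself asked for more than 2-fold, 982 genes passed, 619 higher and 363 lower. The libraries of both groups did not overlap for 56.4% of all genes tested, so absence of overlap for a single gene is common here. With library size alone as the scaling, 2675 genes were higher and 3546 lower, which takes the higher share of the calls from 51.1% to 43.0%.

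**Figure D1:**
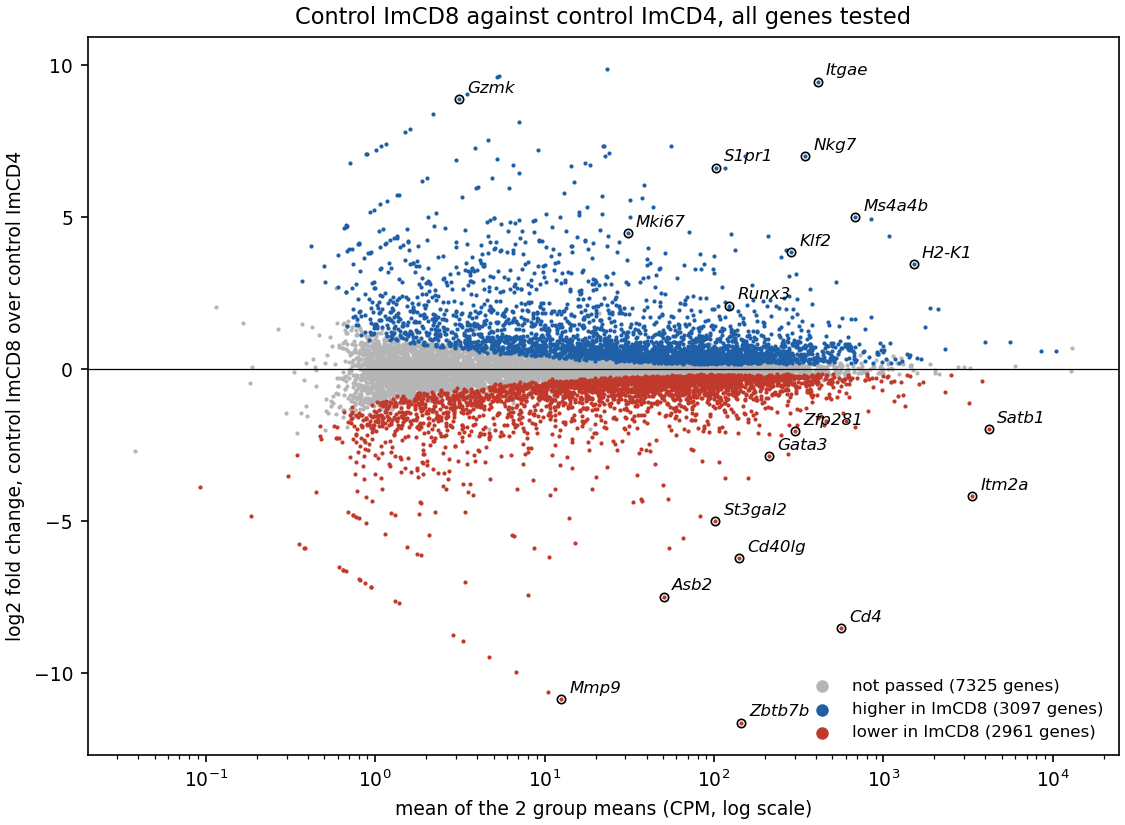
Log2 fold change of control ImCD8 over control ImCD4 (vertical axis) against the mean of both group means in CPM (log axis) for 13383 genes, coloured by the edgeR call at an adjusted p of 0.05. Itgae and Nkg7 lie near the top (log2 fold changes of 9.46 and 7.01) and Zbtb7b and Cd4 near the bottom (-11.62 and -8.52); the slanted rows at both edges are genes with no count in 1 of the groups, whose fitted folds are no bound.

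Genes of the CD8 lineage and of cytotoxic cells were higher in ImCD8. Of 18 tested members of the list, 16 were higher, none was lower and 2 did not pass (all genes tested: 23.1% higher, 22.1% lower). The median log2 fold change was 4.49 against -0.01 over all genes. Members with almost no count in ImCD4, such as Gzmk and Gzmb, were testable only through counts in other groups. Such members could not come out lower, so the filter partly sets the count and the median. Under a filter of 5 CPM 10 members were higher and none was lower. Runx3 (chr4:135120652-135177990, plus strand), the factor that fixes the CD8 lineage, was at 48.2, 52.3 and 39.6 CPM in ImCD4 and 193, 192 and 209.9 CPM in ImCD8. The groups were separate and each was tight (log2 fold change 2.09 ± 0.10, adjusted p = 3.03e-10). Itgae, the integrin CD103 that Runx3 is known to activate, was at 1.178, 0.994 and 1.27 CPM in ImCD4 and 816, 811 and 821 CPM in ImCD8. It was all but absent from ImCD4 and near-equal across the ImCD8 libraries (log2 fold change 9.46 ± 0.14, adjusted p = 1.50e-16). Nkg7, a protein of cytotoxic granules, was at 7.54, 4.97 and 3.50 CPM in ImCD4 and 625, 666 and 755 CPM in ImCD8 (log2 fold change 7.01 ± 0.31, adjusted p = 2.99e-08). Ctsw, a cathepsin of cytotoxic lymphocytes, was already present in ImCD4 at 59.4, 65.1 and 61.04 CPM and stood at 516, 556 and 563 CPM in ImCD8 (log2 fold change 3.14 ± 0.09, adjusted p = 7.38e-13). Cst7, a cysteine protease inhibitor of the same cells, was at 0.236, 0.442 and 0.318 against 42.6, 47.2 and 53.3 CPM. Crtam, an adhesion receptor, was higher too (4.16 ± 0.16), as was the chemokine gene Xcl1 at 0.471, 0.663 and 1.06 against 21.5, 24.6 and 26.2 CPM.

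The promoters of Runx3 (its distal promoter) and Nkg7 are shown because both genes rose together and because Runx factors bind a core of TGTGGT. The window runs from 250 bases before to 50 after the start, and the capitals mark that core, read as ACCACA on the other strand. Coordinates and sequence are from RefSeq, GRCm38.p6: chr4:135120395-135120694 for Runx3 and chr7:43436888-43437187 for Nkg7, both on the plus strand.
Runx3: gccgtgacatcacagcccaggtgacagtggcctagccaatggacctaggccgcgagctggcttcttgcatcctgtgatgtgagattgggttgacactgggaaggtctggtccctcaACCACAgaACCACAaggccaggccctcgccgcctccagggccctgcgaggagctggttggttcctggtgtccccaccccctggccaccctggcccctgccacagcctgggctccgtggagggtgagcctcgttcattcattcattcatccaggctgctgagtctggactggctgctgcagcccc
Nkg7: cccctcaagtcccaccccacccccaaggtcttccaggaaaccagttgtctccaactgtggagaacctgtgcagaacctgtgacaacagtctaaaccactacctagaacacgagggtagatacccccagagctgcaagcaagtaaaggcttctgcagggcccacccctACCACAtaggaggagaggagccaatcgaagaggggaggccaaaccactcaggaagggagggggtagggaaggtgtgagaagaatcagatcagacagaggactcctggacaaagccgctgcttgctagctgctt
The core lies in the Runx3 window at 2 places and in the Nkg7 window at 1. It is a short motif, found on either strand in 18.9% of the 27025 genes with a window. Windows were matched for 16 of the 21 members of the cytotoxic list, under 80%, so no share is given for that list. A match is a string of letters and shows no binding.

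The effector genes of the list were uneven between the ImCD8 libraries. Gzmb, a granule protease that triggers death of target cells, was at 0, 0 and 0.106 CPM in ImCD4 and 7.51, 3.38 and 16.8 CPM in ImCD8 (log2 fold change 7.54 ± 0.90, adjusted p = 1.57e-05), and its log2 fold change was 6.78 without ImCD8 replicate 3. Without ImCD4 replicate 3 that group had no count of Gzmb, and the fitted values (9.44, or 8.68 without replicate 3 of every group) then depend on the prior count. Gzmk was at 5.04, 2.25 and 11.5 CPM in ImCD8 and had no count in ImCD4, which makes it at least 59.8-fold higher against a floor of 3 counts over the group, or at least 34.2-fold without ImCD8 replicate 3. Ccl5, a chemokine of effector cells, was at 0.471, 0.221 and 0.106 CPM in ImCD4 and 30.1, 22.5 and 79.9 CPM in ImCD8 (log2 fold change 7.35 ± 0.77, adjusted p = 2.40e-05), and its log2 fold change was 6.22 without replicate 3 of every group, 6.60 without ImCD8 replicate 3 and 7.98 without ImCD4 replicate 1. In each of these genes ImCD8 replicate 3 was the highest library. Klrd1, the CD94 chain of an inhibitory receptor, followed the same order at 0.118, 0.110 and 0.106 against 14.01, 9.86 and 30.5 CPM (log2 fold change 7.20 ± 0.94, adjusted p = 1.27e-04), with a log2 fold change of 6.59 without ImCD8 replicate 3 and 6.56 without replicate 3 of every group. Klrk1, which encodes the NKG2D receptor, was too low to test: it had no count in ImCD4 and 1.23, 0.845 and 7.97 CPM in ImCD8, at least 32.5-fold higher and at least 9.54-fold without ImCD8 replicate 3. Prf1, the pore-forming perforin, was at 10.2, 8.84 and 4.66 against 36.98, 37.9 and 61.03 CPM (log2 fold change 2.53 ± 0.29, adjusted p = 1.90e-05).

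The T-box factor genes of effector cells had few counts in every library. Eomes was at 0.824, 0.552 and 0.318 CPM in ImCD4 and 4.59, 3.38 and 10.95 CPM in ImCD8 (log2 fold change 3.49 ± 0.52, adjusted p = 7.68e-05), and its log2 fold change was 2.82 without ImCD8 replicate 3 and 2.53 without replicate 3 of every group. Tbx21, which encodes T-bet, was at 0, 0.110 and 0.212 against 2.13, 2.11 and 4.68 CPM (log2 fold change 4.61 ± 0.65, adjusted p = 3.12e-05), with a log2 fold change of 5.43 without ImCD4 replicate 3. Fasl, a death ligand, was called (log2 fold change 2.10 ± 0.68, adjusted p = 0.0232) on values of 0.942, 0.994 and 0.318 against 1.68, 0.986 and 6.70 CPM, where the groups overlapped; the adjusted p was 0.0869 without ImCD4 replicate 3, 0.247 without ImCD8 replicate 3 and 0.482 without replicate 3 of every group. The serpin genes Serpinb9 and Serpinb6b did not pass, at 14.01, 16.5 and 16.1 against 16.5, 15.1 and 19.9 CPM and 7.07, 7.07 and 9.11 against 6.39, 7.47 and 9.36 CPM. Gzmm and Ifng were under the filter on low counts.

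**Figure D2:**
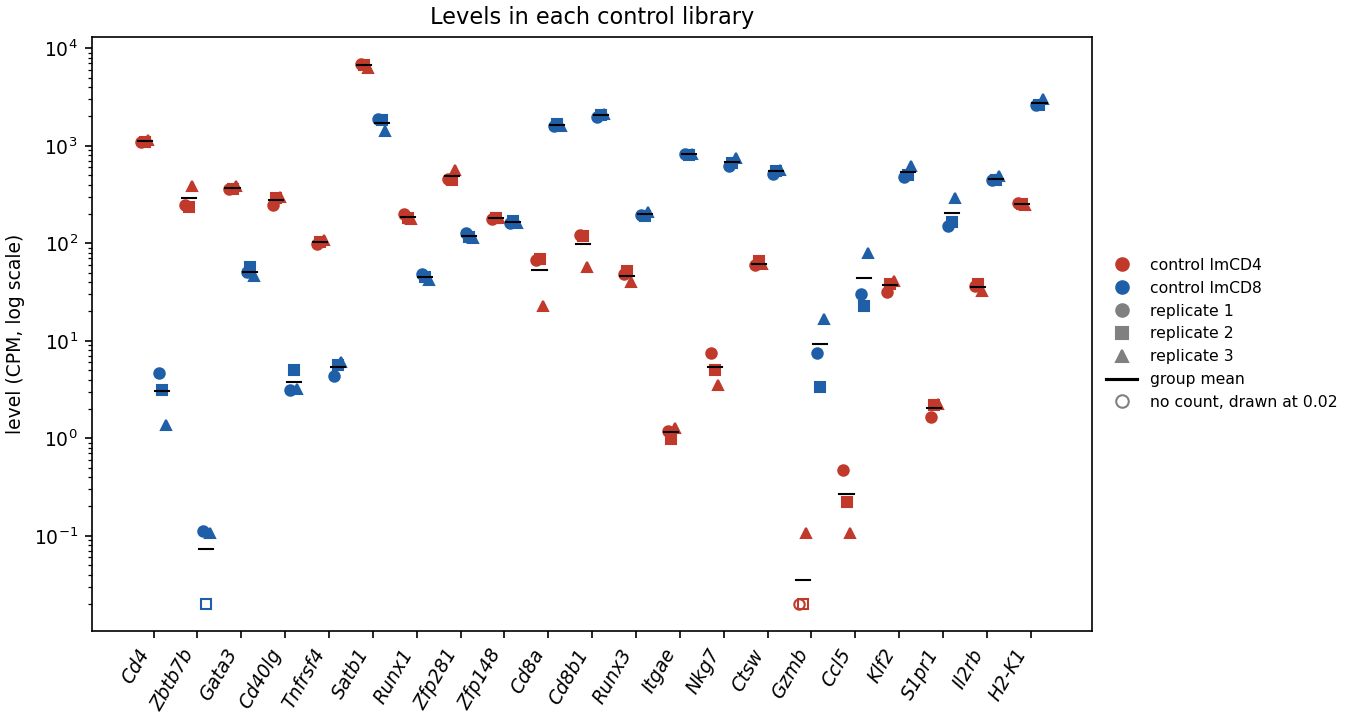
CPM on a log axis in each of the 6 control libraries for 21 genes, with ImCD4 in red, ImCD8 in blue, the replicate given by the symbol and the group mean by a bar; open symbols are libraries with no count. Zbtb7b and Itgae are near-exclusive to 1 group, Zfp148 is level, and replicate 3 (triangle) is the highest ImCD8 library for Gzmb, Ccl5 and S1pr1.

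CD4-lineage genes were lower in ImCD8: 9 of 12 tested members were lower, 2 were higher and 1 did not pass. Their median log2 fold change was -1.76 (all genes tested: 22.1% lower, 23.1% higher). Zbtb7b (chr3:89377644-89394776, minus strand), the CD4-fate factor ThPOK, was at 247, 236 and 388 CPM in ImCD4 and 0.112, 0 and 0.106 CPM in ImCD8. It was near 0 in every ImCD8 library (log2 fold change -11.62 ± 0.61, adjusted p = 1.92e-07), with ImCD4 replicate 3 the highest. Gata3, which acts before Zbtb7b in CD4 commitment, remained measurable in ImCD8 at 363, 362 and 389 against 50.8, 57.05 and 46.2 CPM (log2 fold change -2.86 ± 0.10, adjusted p = 4.93e-12). Cd40lg, the ligand through which CD4 T cells help B cells, was at 244, 291 and 296 against 3.14, 5.07 and 3.19 CPM (log2 fold change -6.22 ± 0.15, adjusted p = 6.40e-14). Tnfrsf4 (OX40), a costimulatory receptor, was at 97.4, 102 and 108 against 4.37, 5.63 and 6.06 CPM (log2 fold change -4.26 ± 0.15, adjusted p = 4.93e-12). Ccr4, a chemokine receptor of newly selected cells, was at 279, 339 and 264 against 28.7, 29.2 and 16.5 CPM (log2 fold change -3.58 ± 0.29, adjusted p = 4.57e-06). Satb1, a chromatin organiser of thymocytes, was lower at 6933, 6724 and 6343 against 1869, 1831 and 1401 CPM (log2 fold change -1.97 ± 0.16, adjusted p = 6.55e-07). Tox, a nuclear factor needed for the CD4 lineage, was at 698, 695 and 517 against 241, 225 and 189 CPM (log2 fold change -1.54 ± 0.20, adjusted p = 7.64e-05). Icos and Izumo1r were lower too, with log2 fold changes of -0.92 ± 0.08 and -1.17 ± 0.15. Myb and Ctla4 went the other way (1.24 ± 0.25 and 0.86 ± 0.22), Ctla4 at under 8 CPM in every control library.

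In the list of T-lineage transcription regulators, 8 of 31 tested were higher in ImCD8, 16 were lower and 7 did not pass (median log2 fold change -0.58). The targeted genes reported above are part of this list, with Zfp281 among the lower and Zfp148 among those that did not pass. Over all genes tested 23.1% were higher and 22.1% lower. The Runx family split. Runx1, which serves earlier thymocytes, was at 201, 181 and 178 CPM in ImCD4 and 47.8, 44.9 and 41.7 CPM in ImCD8 (log2 fold change -2.06 ± 0.08, adjusted p = 1.40e-11), opposite to Runx3. Runx2 was lower as well (-1.24 ± 0.23), and Cbfb, the partner subunit shared by all 3, was slightly higher (0.43 ± 0.11). Several broadly acting factors were present in both groups and lower in ImCD8. Ets1 was at 4536, 4582 and 3949 against 2068, 2235 and 1735 CPM (log2 fold change -1.11 ± 0.12, adjusted p = 3.16e-06). Bcl11b, which holds T-cell identity, was at 1745, 1716 and 1202 against 794, 837 and 616 CPM (log2 fold change -1.05 ± 0.20, adjusted p = 0.00117), with replicate 3 lowest in both groups. The HMG factors Tcf7 and Lef1 had log2 fold changes of -0.76 ± 0.11 and -0.88 ± 0.09, Sox4 of -1.07 ± 0.18 and Tox2 of -3.55 ± 0.34. Patz1 was at 263, 243 and 245 against 133, 121 and 126 CPM (log2 fold change -0.98 ± 0.07, adjusted p = 1.35e-08). Id2, an inhibitor of E proteins, was lower at 683, 643 and 764 against 206, 151 and 228 CPM (log2 fold change -1.84 ± 0.14, adjusted p = 2.68e-07), whereas its relative Id3 was marginally called (log2 fold change 0.25 ± 0.10, adjusted p = 0.044) with overlapping groups and an adjusted p of up to 0.196 in the alternatives. Higher factors included Foxo1, which drives Klf2 and Il7r in mature T cells, at 113, 106 and 85.2 against 285, 310.2 and 288 CPM (log2 fold change 1.54 ± 0.12, adjusted p = 1.15e-07). The Ikaros-family genes Ikzf2, Ikzf3 and Ikzf4 were higher (1.39 ± 0.25, 1.12 ± 0.24 and 1.26 ± 0.16) while Ikzf1 did not pass (-0.10 ± 0.09). Zbtb7a, the closest paralog of Zbtb7b, was higher (0.85 ± 0.08). Tcf3, Tcf12, Foxp1, Bcl6 and Chd4 did not pass.

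Genes of mature single-positive thymocytes were higher in ImCD8 in 19 of 21 tested members (all genes tested: 23.1% higher, 22.1% lower). Of the list, 1 was lower and 1 did not pass, and the median log2 fold change was 2.85. The summed level of the list was 3136 to 3316 CPM in ImCD4 and 7327 to 8145 CPM in ImCD8. Klf2, the factor that directs egress, was at 31.3, 38.5 and 41.4 CPM in ImCD4 and 481, 507 and 619 CPM in ImCD8 (log2 fold change 3.85 ± 0.14, adjusted p = 7.36e-11). S1pr1, the sphingosine phosphate receptor by which thymocytes leave, was at 1.65, 2.21 and 2.23 CPM in ImCD4 and 150.04, 166 and 293 CPM in ImCD8. The groups were separate, and ImCD8 replicate 3 was the highest library (log2 fold change 6.63 ± 0.46, adjusted p = 1.90e-06). The membrane protein genes Ms4a4b and Ms4a6b were at 41.9, 51.2 and 31.3 against 1262, 1341 and 1368 CPM and 31.1, 42.8 and 24.4 against 485, 487 and 516 CPM, and reads of this family can be shared between near-identical copies. Slfn1, a Schlafen gene, was at 21.1, 20.2 and 19.6 against 179, 165 and 197 CPM (log2 fold change 3.15 ± 0.11, adjusted p = 4.93e-12). Itgb7, the partner chain of Itgae, was at 132, 128 and 122 against 855, 953 and 953 CPM (log2 fold change 2.85 ± 0.10, adjusted p = 4.93e-12). The member that was lower was Il7r, the receptor chain for the survival cytokine IL-7, at 441, 498 and 509 against 141, 117 and 144 CPM (log2 fold change -1.85 ± 0.12, adjusted p = 7.07e-09). Ly6c1 did not pass, while Ly6c2 was higher (4.92 ± 0.86, and 4.30 without ImCD8 replicate 3); these copies are near-identical and their split is uncertain.

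Of 13 tested genes of the preceding double-positive stage none was higher, 5 were lower and 8 did not pass, where 23.1% of all genes tested were higher and 22.1% lower. Tespa1, a signalling protein needed for positive selection, was at 244, 232 and 231 against 127, 109 and 112 CPM (log2 fold change -1.02 ± 0.09, adjusted p = 2.80e-07), Cd24a at 99.4, 82.5 and 75.1 against 43.3, 44.5 and 28.5 CPM (log2 fold change -1.15 ± 0.29, adjusted p = 0.00898), and Bcl2l1 at 136, 146 and 129 against 59.7, 68.03 and 49.8 CPM (log2 fold change -1.21 ± 0.11, adjusted p = 3.65e-07). Dntt, which adds bases at receptor joints, was at 58.6, 45.2 and 42.3 against 50.8, 47.5 and 34.02 CPM and did not pass.

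MHC class I and antigen-processing genes were higher in 19 of 23 tested members, with none lower and 4 that did not pass. Their median log2 fold change was 0.81 (all genes tested: 23.1% higher, 22.1% lower). H2-K1, which a gate used, is 1 of the 19 and is no finding. H2-D1, a classical class I heavy chain on which no gate was set, was at 726, 776 and 735 CPM in ImCD4 and 2815, 3111 and 3155 CPM in ImCD8 (log2 fold change 2.02 ± 0.08, adjusted p = 1.30e-11). B2m, the light chain shared by all class I molecules, was at 885, 872 and 781 against 3338, 3309 and 3346 CPM (log2 fold change 1.98 ± 0.08, adjusted p = 2.49e-11). H2-Kb, for which ImCD4 was sorted negative, is such a molecule, so the other members may depend on that gate too. This dependence was not tested. H2-Q7 and H2-Q6, nonclassical class I genes, were at 3.41, 2.87 and 0.742 against 347, 299.7 and 260.05 CPM and 0, 0.110 and 0 against 56.3, 44.4 and 40.3 CPM, and their near-identical copies leave the split between them uncertain. Tap2, Calr and Pdia3, which load peptide in the endoplasmic reticulum, did not pass (0.15 ± 0.09, 0.20 ± 0.09 and -0.13 ± 0.11).

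Interferon-stimulated genes were higher in 38 of 44 tested members, none was lower and 6 did not pass. Their median log2 fold change was 0.94 (all genes tested: 23.1% higher, 22.1% lower). No alternative gave fewer than 38 or more than 41 higher members. Ifit3, a cofactor of the viral RNA-binding protein Ifit1, was at 1.30, 2.87 and 1.59 CPM in ImCD4 and 54.8, 66.6 and 65.3 CPM in ImCD8 (log2 fold change 5.003 ± 0.29, adjusted p = 1.56e-08). Ifit1 itself was at 41.2, 45.3 and 38.6 against 182, 191 and 200.2 CPM (log2 fold change 2.20 ± 0.18, adjusted p = 1.44e-06). Mx1, an antiviral GTPase, was at 0.707, 0.663 and 0.954 against 10.4, 9.01 and 14.5 CPM (log2 fold change 3.85 ± 0.34, adjusted p = 1.73e-07), and Oas1a, a sensor of double-stranded RNA, at 2.71, 2.21 and 2.76 against 10.9, 10.7 and 11.3 CPM (log2 fold change 2.09 ± 0.24, adjusted p = 2.82e-06). Gbp2, Stat2 and Isg20 did not pass, with log2 fold changes of -0.00 ± 0.11, 0.23 ± 0.10 and 0.30 ± 0.14.

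The Ifit3 promoter is shown because its gene moved most in this list, and carries the interferon response element that interferon-activated factors bind, searched on both strands as GAAA, any 2 bases and GAAA again. The window is chr19:34583279-34583578 on the plus strand (RefSeq, GRCm38.p6), and capitals mark the element, here as its reverse complement.
Ifit3: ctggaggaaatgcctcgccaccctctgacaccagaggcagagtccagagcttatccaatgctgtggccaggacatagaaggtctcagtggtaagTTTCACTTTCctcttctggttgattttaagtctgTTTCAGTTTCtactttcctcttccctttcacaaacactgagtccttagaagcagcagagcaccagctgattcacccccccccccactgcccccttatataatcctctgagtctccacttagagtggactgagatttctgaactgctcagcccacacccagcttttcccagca
The element occurs at 2 places in this window, and in 3.99% of all genes with a window. Windows were matched for 32 of the 44 members, under 80%, so no share is given for the list.

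**Figure D3:**
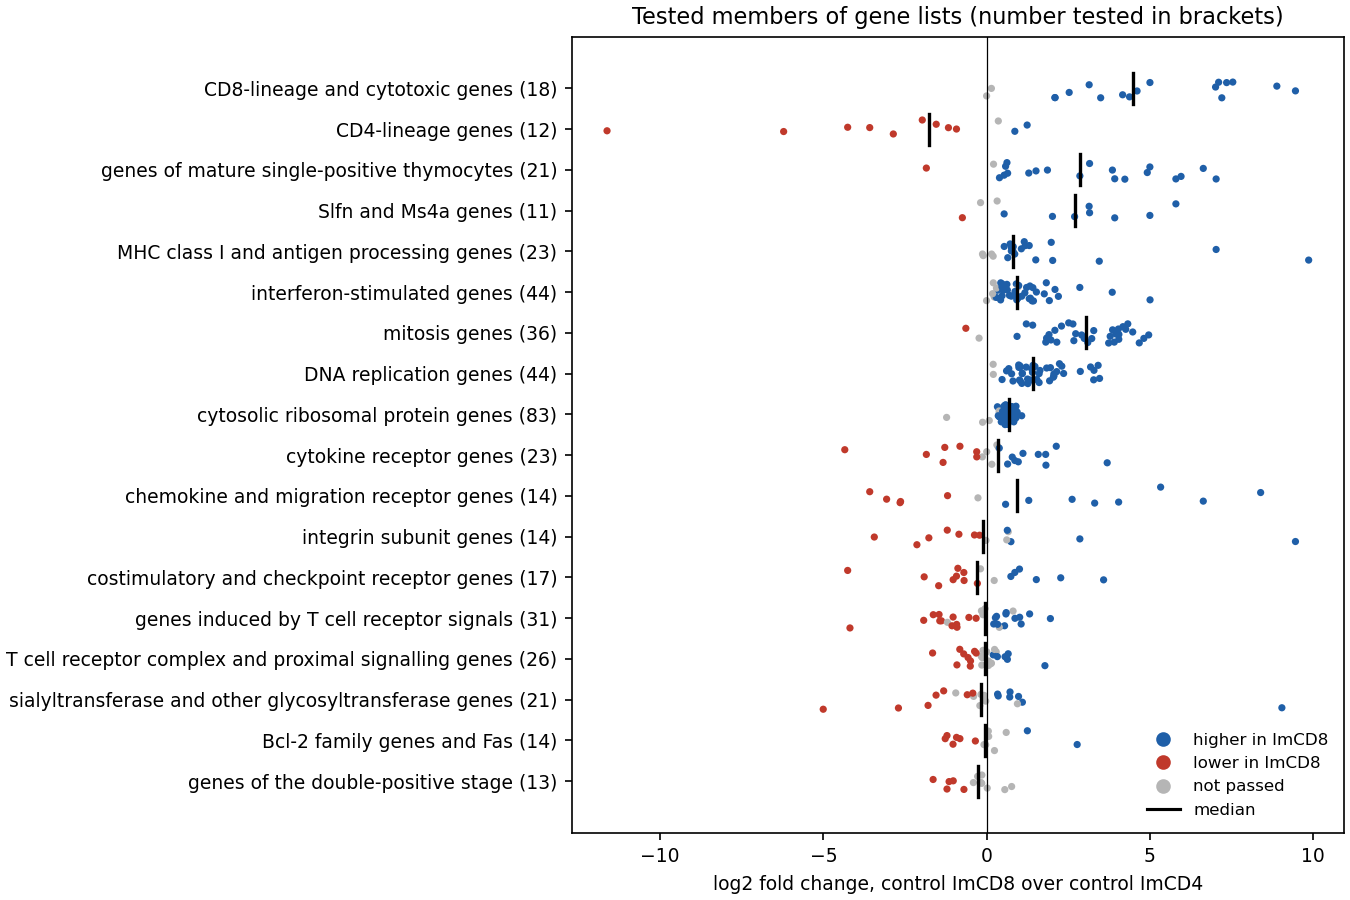
Log2 fold change of control ImCD8 over control ImCD4 for every tested member of 18 gene lists, 1 point per gene coloured by call, with the list median as a black bar and the number of tested members in brackets. Cytotoxic, mature-stage, interferon-stimulated, mitosis, replication and ribosomal protein lists lie mostly to the right of 0 (medians 4.49, 2.85, 0.94, 3.04, 1.41 and 0.68), the CD4-lineage list to the left (-1.76).

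Genes of cell division were higher in ImCD8 (all genes tested: 23.1% higher, 22.1% lower). In the DNA replication list 42 of 44 tested members were higher, none was lower and 2 did not pass (median log2 fold change 1.41). In the mitosis list 34 of 36 were higher, 1 was lower and 1 did not pass (median 3.04). Mki67, which marks cycling cells, was at 3.65, 3.20 and 1.17 CPM in ImCD4 and 76.1, 71.3 and 29.98 CPM in ImCD8 (log2 fold change 4.47 ± 0.52, adjusted p = 7.70e-05). Aurkb, a mitotic kinase, was at 0.707, 0.552 and 0.106 against 15.5, 17.7 and 5.85 CPM (log2 fold change 4.81 ± 0.57, adjusted p = 1.62e-05), and Ccnb2, a mitotic cyclin, at 0.942, 1.10 and 0.424 against 23.5, 28.03 and 12.3 CPM (log2 fold change 4.67 ± 0.54, adjusted p = 2.75e-05). In these 3 genes replicate 3 was the lowest library of its group on both sides. The summed level of the mitosis list was 458, 475 and 394 CPM in ImCD4 and 1168, 1292 and 643 CPM in ImCD8. Without replicate 3 of every group, 34 members were again called higher. Ube2c, which targets mitotic cyclins for destruction, was at 1.41, 0.994 and 0.318 against 22.6, 26.9 and 3.08 CPM (log2 fold change 4.26 ± 1.08, adjusted p = 0.00963). It passed in edgeR but not in limma-voom (adjusted p = 0.0841), and without replicate 3 of every group edgeR's adjusted p was 3.66e-10.

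Replication genes were steadier across libraries, with list sums of 1524 to 1602 CPM in ImCD4 and 3536 to 3842 CPM in ImCD8. Ccne1, the cyclin of S-phase entry, was at 3.41, 3.87 and 2.65 CPM in ImCD4 and 28.8, 33.7 and 27.96 CPM in ImCD8 (log2 fold change 3.18 ± 0.18, adjusted p = 1.05e-09). Pole, the leading-strand polymerase, was at 4.36, 6.08 and 4.13 against 36.4, 36.3 and 33.9 CPM (log2 fold change 2.87 ± 0.16, adjusted p = 7.16e-10), and Mcm10, a helicase cofactor, at 1.178, 1.55 and 1.06 against 16.1, 16.2 and 9.78 CPM (log2 fold change 3.46 ± 0.26, adjusted p = 2.31e-08). Rpa1 and Rfc3 were the members that did not pass (0.20 ± 0.14 and 0.20 ± 0.12). Kif23, a kinesin of cytokinesis, was the mitosis gene that was lower, at 85.3, 89.1 and 82.2 against 57.5, 56.3 and 51.2 CPM (log2 fold change -0.64 ± 0.07, adjusted p = 2.81e-06), and Stmn1 did not pass (-0.23 ± 0.16). Of 11 G1 regulators 3 were higher, 4 lower and 4 did not pass (all genes tested: 23.1% higher, 22.1% lower). Without replicate 3 of every group 5 were higher. Ccnd2 (cyclin D2) was higher at 399.9, 393 and 532 against 1057, 1027 and 1265 CPM (log2 fold change 1.34 ± 0.18, adjusted p = 9.58e-05), and the retinoblastoma gene Rb1 was lower at 149, 163 and 145 against 87.5, 82.8 and 70.4 CPM (log2 fold change -0.93 ± 0.10, adjusted p = 1.63e-06).

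The Mki67 promoter is shown for the cell cycle homology element of mitosis genes, searched as TTTGAA on both strands and marked in capitals, in the window chr7:135716330-135716629 on the minus strand (RefSeq, GRCm38.p6).
Mki67: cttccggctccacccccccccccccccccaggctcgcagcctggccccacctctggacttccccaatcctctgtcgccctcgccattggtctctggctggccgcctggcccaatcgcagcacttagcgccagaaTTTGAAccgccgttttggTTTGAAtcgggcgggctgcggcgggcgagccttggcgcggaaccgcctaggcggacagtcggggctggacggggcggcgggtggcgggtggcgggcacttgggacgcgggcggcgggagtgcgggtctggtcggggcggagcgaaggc
The mitosis and replication lists had windows for over 80% of their members. TTTGAA was in 22 of the 30 matched mitosis promoters (73.3%), against 20.2% of all genes with a window and 13.8% of the tested genes with one. The E2F-type string TTTGGCGC was in 8 of the 37 matched replication promoters (21.6%), against 0.585% of all and 1.25% of the tested genes. These strings were picked after the shares of 12 strings had been seen, and the shares are descriptions.

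**Figure D4:**
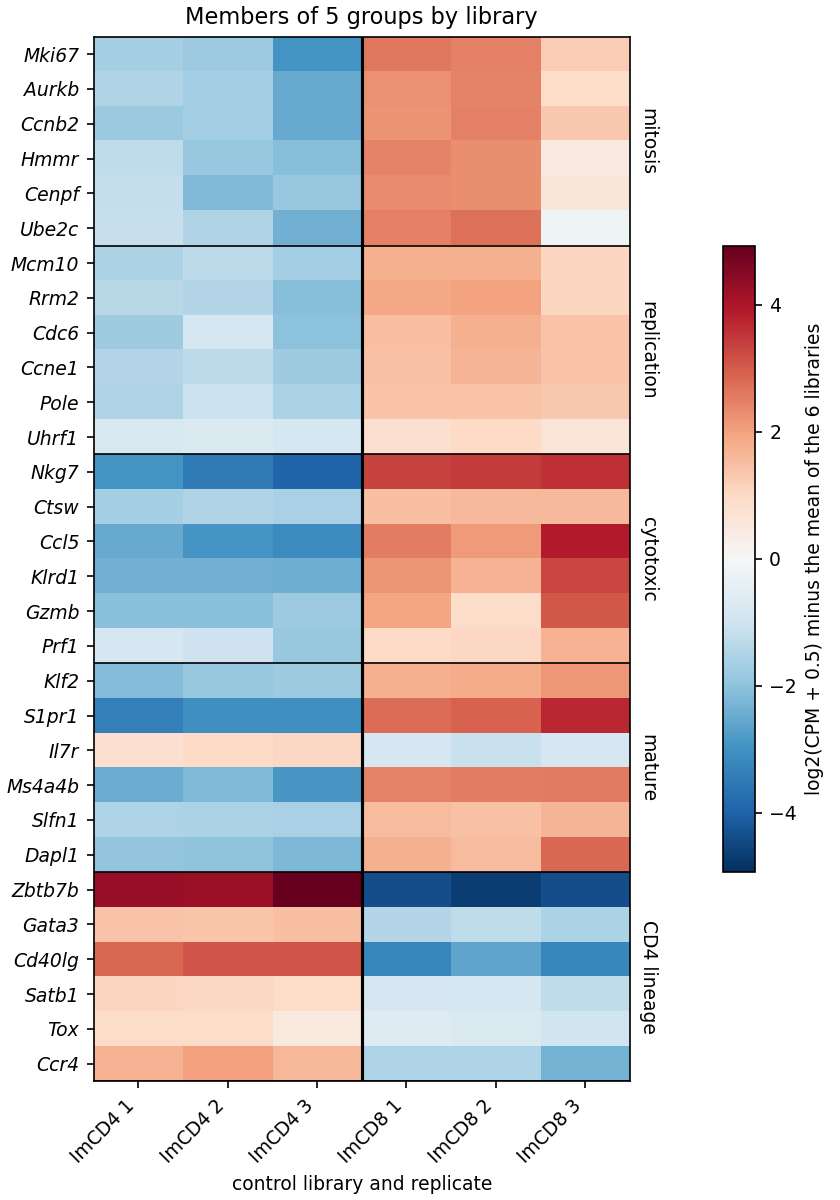
Log2(CPM + 0.5) of 30 genes in 5 groups, centred on each gene's mean over the 6 control libraries (columns; red is higher, blue lower). Replicate 3 of ImCD8 is paler than its group for mitosis genes and darker for Ccl5, Klrd1 and Gzmb. Most replication and CD4-lineage genes vary less within each group. Mcm10 and Ccr4 are lowest in replicate 3 of ImCD8, and Zbtb7b is highest in replicate 3 of ImCD4.

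Cytosolic ribosomal protein genes were higher in 78 of 83 tested members, none was lower and 5 did not pass, each by a small amount (median log2 fold change 0.68), and 55 were higher without replicate 3 of every group. Rps15a was at 217, 198 and 203 CPM in ImCD4 and 432, 441 and 427 CPM in ImCD8 (log2 fold change 1.07 ± 0.13, adjusted p = 1.18e-05) and Rpl32 at 379, 395 and 370.3 against 703, 747 and 738 CPM (log2 fold change 0.93 ± 0.10, adjusted p = 1.64e-06). With library size alone as the scaling the median over all genes moved by -0.07, and 2 ribosomal protein genes were lower. Nuclear genes of oxidative phosphorylation were less uniform: 26 of 70 were higher, 3 were lower and 41 did not pass, and 16 were higher with library size alone. Over all genes tested the shares were 23.1% higher and 22.1% lower. Cox8a was at 129.8, 126 and 118 against 257, 269.6 and 265 CPM (log2 fold change 1.08 ± 0.08, adjusted p = 1.46e-08). Glycolysis genes were split, 5 higher, 6 lower and 10 not passed of 21, with 3 higher without replicate 3 of every group. Both called counts lie near the shares over all genes. Ldhb fell (297, 309 and 251 against 80.01, 107 and 56.5 CPM; log2 fold change -1.82 ± 0.25, adjusted p = 1.89e-04), whereas Ldha and Gapdh did not pass (0.03 ± 0.07 and -0.03 ± 0.08). Of 28 cholesterol and fatty acid synthesis genes 6 were higher, 5 lower and 17 did not pass, with 2 lower without replicate 3 of every group. These counts lie near the shares over all genes too. The desaturase gene Scd2 was lower at 838, 888 and 815 against 302, 358 and 270.5 CPM (log2 fold change -1.45 ± 0.12, adjusted p = 1.79e-07), and Acaca, which makes malonyl-CoA, higher at 8.24, 8.73 and 6.78 against 21.96, 22.7 and 21.1 CPM (log2 fold change 1.47 ± 0.13, adjusted p = 2.50e-07). Of mitochondrially encoded protein genes 2 of 13 were higher, mt-Nd3 and mt-Co3, a count that ran from 0 to 3 over the alternatives.

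Receptors for cytokines and chemokines separated the groups in both directions. Of 23 cytokine receptor genes tested 11 were higher, 7 lower and 5 did not pass (all genes tested: 23.1% higher, 22.1% lower). Il2rb, the chain that IL-2 and IL-15 share, was at 36.3, 38.5 and 32.5 CPM in ImCD4 and 448, 447 and 491 CPM in ImCD8 (log2 fold change 3.69 ± 0.08, adjusted p = 4.05e-14). Il27ra was at 129, 142 and 141 against 468, 485 and 498 CPM (log2 fold change 1.82 ± 0.08, adjusted p = 7.46e-11) and Il21r at 171, 158 and 170.1 against 469.9, 502 and 524 CPM (log2 fold change 1.58 ± 0.08, adjusted p = 2.62e-10). Il17rb, part of the IL-25 receptor, was lower at 68.9, 80.3 and 65.9 against 4.71, 4.51 and 1.59 CPM (log2 fold change -4.34 ± 0.24, adjusted p = 1.14e-08). Il2rg, the common gamma chain, and Tgfbr1 did not pass (-0.13 ± 0.07 and 0.00 ± 0.10). Of 21 JAK, STAT and SOCS genes 10 were higher, 4 lower and 7 did not pass. Socs3, which cytokines induce and which dampens their signals, was higher at 2.47, 1.33 and 1.38 against 43.3, 35.5 and 43.8 CPM (log2 fold change 4.57 ± 0.23, adjusted p = 3.37e-10), while Socs1, a brake on IL-7 and interferon signals, was lower at 305, 272 and 343 against 169, 146 and 199.6 CPM (log2 fold change -0.84 ± 0.17, adjusted p = 0.00142).

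Of 14 chemokine and migration receptor genes tested, 8 were higher, 5 lower and 1 did not pass (all genes tested: 23.1% higher, 22.1% lower). Cxcr6 was at 1.88, 1.88 and 2.54 CPM in ImCD4 and 58.5, 59.7 and 136 CPM in ImCD8 (log2 fold change 5.33 ± 0.50, adjusted p = 1.72e-05), with ImCD8 replicate 3 above the other libraries. Cxcr3 had no count in ImCD4 and 3.70, 1.69 and 7.87 CPM in ImCD8, at least 42.1-fold higher and at least 25.3-fold without ImCD8 replicate 3. S1pr4 was at 8.48, 9.72 and 7.95 against 83.4, 80.7 and 94.8 CPM (log2 fold change 3.31 ± 0.12, adjusted p = 4.93e-12). Lower receptors were Gpr183, which senses oxysterols, at 195, 168 and 212 against 21.1, 24.4 and 23.5 CPM (log2 fold change -3.06 ± 0.12, adjusted p = 3.02e-11), Ccr8 at 117, 121 and 149 against 14.9, 30.7 and 17.01 CPM (log2 fold change -2.65 ± 0.27, adjusted p = 2.38e-05), Plxnd1, a semaphorin receptor, at 105, 127 and 147 against 23.5, 19.9 and 17.5 CPM (log2 fold change -2.64 ± 0.19, adjusted p = 3.20e-07), and Ccr9, the receptor for the thymic chemokine Ccl25, at 1981, 1983 and 1659.9 against 869.9, 766 and 817 CPM (log2 fold change -1.20 ± 0.09, adjusted p = 1.62e-08). Of 14 integrin subunit genes 4 were higher, 7 lower and 3 did not pass. Itgae and Itgb7 had the largest rises, and Itgb3, a chain of the vitronectin receptor, was lower at 329.7, 335 and 364 against 79.1, 75.9 and 79.1 CPM (log2 fold change -2.14 ± 0.08, adjusted p = 1.40e-11). Itgb1 and Itgb2, chains that many T cell integrins share, were lower as well (-0.85 ± 0.10 and -0.37 ± 0.07).

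Costimulatory and checkpoint receptor genes were lower in 9 of 17 tested and higher in 6 (all genes tested: 22.1% lower, 23.1% higher). Cd28, the main costimulatory receptor, was at 1111, 1081 and 1037 CPM in ImCD4 and 332, 300.02 and 225 CPM in ImCD8 (log2 fold change -1.91 ± 0.19, adjusted p = 7.26e-06). Cd160, a receptor of cytotoxic cells, was higher at 4.47, 5.52 and 4.13 against 61.7, 53.9 and 53.7 CPM (log2 fold change 3.58 ± 0.12, adjusted p = 4.23e-12), and so was Slamf6 at 17.4, 32.4 and 19.3 against 112, 101 and 119.8 CPM (log2 fold change 2.27 ± 0.24, adjusted p = 2.29e-05). Cd96 and Cd226, which share a ligand, both rose, with log2 fold changes of 1.52 ± 0.11 and 1.01 ± 0.16.

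The T cell receptor complex and its signalling genes changed in both directions. Of 26 genes of the complex and its proximal signalling, 6 were higher, 9 lower and 11 did not pass (all genes tested: 23.1% higher, 22.1% lower). The higher count lies near the share over all genes, and the median log2 fold change was -0.05. Cd3d was at 936, 928 and 954 CPM in ImCD4 and 969, 1033 and 930.2 CPM in ImCD8 and did not pass (0.06 ± 0.08), nor did Lck (0.15 ± 0.07) or Ptprc (0.06 ± 0.07). Trat1, an adaptor of the complex, was lower at 114, 115 and 109.8 against 31.04, 40.8 and 36.1 CPM (log2 fold change -1.66 ± 0.11, adjusted p = 6.44e-09), as was Cd5, whose level tracks receptor signal strength, at 662, 670.1 and 747 against 384, 418 and 304 CPM (log2 fold change -0.91 ± 0.14, adjusted p = 1.35e-04). Ptpn22, a phosphatase that dampens the receptor, was higher at 81.96, 89.9 and 65.7 against 251, 251 and 316 CPM (log2 fold change 1.78 ± 0.15, adjusted p = 4.60e-07).

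Genes that receptor signals induce went both ways, 13 higher, 12 lower and 6 not passed of 31 (all genes tested: 23.1% higher, 22.1% lower). Itm2a, a membrane protein induced at positive selection, was at 6249, 6451 and 6181 CPM in ImCD4 and 387, 376 and 275 CPM in ImCD8. It was 18.2-fold lower in ImCD8, with tight groups (log2 fold change -4.19 ± 0.23, adjusted p = 6.57e-08). Egr2, an early receptor target, was at 247, 231 and 240.2 against 90.5, 86.1 and 98.02 CPM (log2 fold change -1.38 ± 0.15, adjusted p = 6.90e-06), and the ERK phosphatase genes Dusp5 and Dusp6 were lower (-1.46 ± 0.10 and -1.43 ± 0.10). Irf4 was at 40.98, 46.1 and 53.1 against 11.99, 12.7 and 12.2 CPM (log2 fold change -1.93 ± 0.15, adjusted p = 5.33e-08) and Nfkbid at 242, 257 and 216 against 72.8, 88.7 and 69.5 CPM (log2 fold change -1.63 ± 0.11, adjusted p = 8.78e-09). Higher members were Jund (1.32 ± 0.11), Myc (1.01 ± 0.17), Nr4a2 (1.06 ± 0.16) and Spry1 (1.95 ± 0.32). Junb, Nfkb1 and Nr4a3 did not pass. Of 12 genes of agonist selection 5 were higher, 6 lower and 1 did not pass. Bcl2l11 (Bim) and Bbc3 (Puma), which kill strongly signalled cells, were lower at 299, 273 and 275 against 133, 129 and 90.3 CPM (log2 fold change -1.27 ± 0.15, adjusted p = 2.45e-05) and 44.5, 43.3 and 48.6 against 20.4, 20.99 and 25.3 CPM (log2 fold change -1.03 ± 0.11, adjusted p = 9.89e-07). Foxp3, the factor of regulatory T cells, was at 0.236, 0.221 and 0.212 against 1.01, 2.39 and 3.08 CPM (log2 fold change 3.20 ± 0.58, adjusted p = 2.91e-04), and Tigit was called (log2 fold change 1.24 ± 0.48, adjusted p = 0.0474) but not without replicate 3 of every group (adjusted p = 0.519), ImCD8 replicate 3 (0.286), ImCD4 replicate 3 (0.163) or ImCD4 replicate 2 (0.074).

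Among the Bcl-2 family and Fas, 2 of 14 tested genes were higher, 6 lower and 6 did not pass (all genes tested: 23.1% higher, 22.1% lower). Bcl2 itself was lower at 697, 572 and 551 against 360.5, 334 and 337 CPM (log2 fold change -0.82 ± 0.12, adjusted p = 4.36e-05). Bmf, a death-promoting member, was higher at 5.65, 6.41 and 4.03 against 40.6, 42.8 and 26.8 CPM (log2 fold change 2.77 ± 0.28, adjusted p = 3.82e-06), and Mcl1 and Bax did not pass (0.05 ± 0.06 and 0.06 ± 0.11).

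Surface glycan genes included large differences. Of 21 tested, 7 were higher, 7 lower and 7 did not pass (all genes tested: 23.1% higher, 22.1% lower). St3gal2, a sialyltransferase, was at 193, 199.9 and 200.3 CPM in ImCD4 and 8.07, 6.62 and 3.93 CPM in ImCD8 (log2 fold change -5.004 ± 0.20, adjusted p = 4.87e-10). St8sia4 and St6gal1 were lower (-1.55 ± 0.07 and -1.32 ± 0.15), and St3gal4 and Mgat1 higher (1.09 ± 0.13 and 0.98 ± 0.10). Golm1, a Golgi membrane protein, had no count in ImCD4 and 4.59, 3.38 and 12.97 CPM in ImCD8, at least 66.1-fold higher and at least 36.5-fold without ImCD8 replicate 3.

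Notch, calcium and Gimap genes also changed in both directions, with 4 higher and 3 lower of 8, 9 and 7 of 23, and 4 and 4 of 8. The shares over all genes tested were 23.1% higher and 22.1% lower. Dtx1, a Notch target and regulator, was at 12.95, 19.8 and 15.9 CPM in ImCD4 and 220.1, 267 and 259 CPM in ImCD8 (log2 fold change 3.93 ± 0.37, adjusted p = 1.98e-05), with Notch3 at 2.59, 4.97 and 3.50 against 16.7, 12.7 and 10.5 CPM (log2 fold change 1.84 ± 0.26, adjusted p = 3.08e-05). Rbpj, the nuclear partner of Notch, was lower (log2 fold change -0.71 ± 0.18, adjusted p = 0.00631). Among ion channel genes Orai3 was higher at 4.12, 3.98 and 4.13 against 25.997, 22.4 and 23.8 CPM (log2 fold change 2.56 ± 0.14, adjusted p = 9.87e-10), Itpr1, an endoplasmic calcium channel, lower at 131, 141 and 159 against 45.2, 35.2 and 42.4 CPM (log2 fold change -1.81 ± 0.13, adjusted p = 6.71e-08), and Scn4b, a sodium channel subunit, lower at 5.77, 8.51 and 5.93 against 0.224, 1.13 and 0.213 CPM (log2 fold change -3.78 ± 0.54, adjusted p = 4.88e-05, with a log2 fold change of -4.87 without ImCD8 replicate 2). Gimap5, Gimap3, Gimap7 and Gimap1 were higher and Gimap9, Gimap6, Gimap8 and Gimap4 lower, from 1.49 ± 0.09 to -1.01 ± 0.08, although these GTPases are close copies.

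The largest falls outside the lists were ranked by log2 fold change among called genes with at least 5 CPM in the higher group and no overlap. Mmp9, a matrix metalloprotease, was at 28.7, 18.3 and 28.1 CPM in ImCD4 with no count in ImCD8, at least 212-fold lower. Akr1c18, Hap1, Prlr (the prolactin receptor) and Cdh3 (P-cadherin) also had no count in ImCD8 and were at least 179-fold, 115-fold, 80.1-fold and 56.2-fold lower. Il21, a cytokine of helper cells, was at 13.1, 13.5 and 21.1 against 0.112, 0.141 and 0 CPM (log2 fold change -7.43 ± 0.55, adjusted p = 2.41e-07), with a log2 fold change of -6.84 without ImCD8 replicate 3 and -6.58 without replicate 3 of every group. Asb2, a ubiquitin ligase subunit, was at 116, 95.7 and 90.4 against 0.672, 0.986 and 0.106 CPM (log2 fold change -7.48 ± 0.27, adjusted p = 3.55e-11). Ptgir, the prostacyclin receptor, was at 95.7, 119 and 104 against 1.57, 2.68 and 1.28 CPM (log2 fold change -5.89 ± 0.19, adjusted p = 4.08e-12), and Chl1, an adhesion molecule, at 128, 139 and 117 against 3.92, 2.96 and 1.38 CPM (log2 fold change -5.55 ± 0.26, adjusted p = 6.89e-09). The remaining falls were Acvr1c, Gpr153 and Adam15 (-7.00 ± 0.70, -6.18 ± 0.26 and -5.73 ± 0.37). The value of Acvr1c was -6.10 without replicate 3 of every group, and -8.97 without ImCD8 replicate 1, where ImCD8 had no count and the value depends on the prior count.

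Of the largest rises outside the lists, Art2b, an ADP-ribosyltransferase of T cells, was at 0.471, 0.221 and 0.106 CPM in ImCD4 and 41.2, 41.6 and 50.9 CPM in ImCD8 (log2 fold change 7.35 ± 0.34, adjusted p = 3.51e-10), with a log2 fold change of 7.99 without ImCD4 replicate 1. Fam101b was at 0.589, 0.663 and 0.742 against 98.4, 89.9 and 143 CPM (log2 fold change 7.35 ± 0.29, adjusted p = 5.46e-10). Lcn4 was low at 0.118, 0 and 0 against 5.83, 6.90 and 10.4 CPM (log2 fold change 7.26 ± 0.79, adjusted p = 1.49e-05), with a log2 fold change of 6.49 without replicate 3 of every group, and of 9.18 without ImCD4 replicate 1, where ImCD4 had no count and the value depends on the prior count. Fam46a had no count in ImCD4 and 9.64, 7.75 and 15.1 CPM in ImCD8, at least 100.1-fold higher and at least 79.1-fold without ImCD8 replicate 3.

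Of 35 T cell receptor beta V and J genes tested 6 were higher, 19 lower and 10 did not pass, where 45.3% of all genes tested were called. Their median log2 fold change was -0.56, and the beta constant genes Trbc1 and Trbc2 were lower too (-0.31 and -0.42). Segment use apart from the level of the whole chain was not tested. Trbv31 was at 90.2, 85.96 and 88.1 CPM in ImCD4 and 30.03, 32.1 and 29.8 CPM in ImCD8 (log2 fold change -1.52 ± 0.10, adjusted p = 5.63e-09), Trbv2 at 76.7, 82.5 and 84.5 against 27.1, 30.3 and 28.9 CPM (log2 fold change -1.50 ± 0.10, adjusted p = 9.71e-09) and Trbv17, in the other direction, at 26.4, 25.9 and 24.7 against 46.95, 47.7 and 48.2 CPM (log2 fold change 0.89 ± 0.09, adjusted p = 6.78e-07). Of 94 alpha segments 10 were higher, 14 lower and 70 did not pass, a smaller called share than over all genes. The duplicated alpha V genes share reads, so single alpha genes are uncertain.

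Markers of other cells were searched in both gates (all genes tested: 23.1% higher, 22.1% lower). Of 9 B cell markers, 3 were tested and 2 were higher: Ighm at 89.8, 78.01 and 68.4 against 298, 319 and 387 CPM (log2 fold change 2.09 ± 0.16, adjusted p = 3.23e-07) and Cd79b at 2.94, 3.43 and 1.59 against 8.18, 11.7 and 10.5 CPM (log2 fold change 1.93 ± 0.30, adjusted p = 1.10e-04). The summed level of the B cell markers, nearly all of it Ighm, was 72.1 to 95.6 CPM in ImCD4 and 309.9 to 402.7 CPM in ImCD8. Pax5, the factor that defines B cells, had no count in any control library. Of 9 innate-like and NK markers 4 were tested and all 4 were higher, with sums of 37.0 to 44.0 CPM and 504.7 to 553.8 CPM. They were Cd160, Cxcr3, Il2rb and Fcer1g, and Ncr1, a receptor of NK cells, had no count. Cxcr3 had no count in ImCD4 and could not come out lower, so the filter partly sets this count. Under a filter of 5 CPM 2 of these markers were higher. Il2rb made up most of the sums in both groups. Of 8 gamma-delta genes 7 were tested, 3 higher and 2 lower, with sums of 98.9 to 107.0 CPM and 32.05 to 33.8 CPM. Sox13 and Etv5 were the lower ones, at 18.8, 20.3 and 21.6 against 0.896, 1.13 and 1.38 CPM and 75.01, 66.3 and 77.6 against 12.1, 11.4 and 10.4 CPM, Tcrg-C1, Tcrg-C2 and Tcrg-C4 the higher ones, each under 6 CPM, and Tcrg-C1 did not pass without ImCD8 replicate 3 (adjusted p = 0.122), ImCD4 replicate 3 (0.0719) or ImCD4 replicate 2 (0.0529). Trdc did not pass (0.41 ± 0.19).

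Of 12 myeloid and dendritic markers 4 were tested and 1, Cst3, was higher (log2 fold change 0.22 ± 0.08, adjusted p = 0.0417), a call lost in 11 of 15 alternatives (adjusted p up to 0.157), with sums of 107.3 to 124.4 CPM and 117.5 to 139.6 CPM and no count of Clec9a. Of 10 erythroid and platelet markers 1 of 4 tested, Car2, was higher, at 5.42, 3.98 and 5.40 against 37.9, 40.002 and 44.9 CPM, and the globin genes did not pass; the sums were 5.83 to 19.4 CPM and 43.4 to 50.5 CPM, and Ppbp had no count. Of 10 thymic epithelial markers 2 of 4 tested were higher, Ly75 at 24.7, 31.5 and 20.6 against 84.4, 88.2 and 85.2 CPM and Epcam at 4.59, 4.31 and 3.92 against 8.29, 9.58 and 8.93 CPM, with sums of 46.7 to 66.7 CPM and 127.0 to 133.1 CPM and no count of Krt14. Neither of 2 tested fibroblast and endothelial markers passed, with sums of 165.2 to 176.9 CPM and 144.5 to 164.2 CPM and no count of Col1a2, Col3a1 or Dcn. The part of such cells in the results was not tested.

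Of 11 Klf genes 6 were higher, 2 lower and 3 did not pass (all genes tested: 23.1% higher, 22.1% lower). Klf3 followed Klf2 at 29.3, 23.8 and 19.8 against 111, 95.4 and 117 CPM (log2 fold change 2.16 ± 0.23, adjusted p = 1.90e-05), and Klf13 was at 390.01, 409 and 355 against 545, 627 and 518 CPM (log2 fold change 0.55 ± 0.08, adjusted p = 6.25e-05). Klf7 and Klf10 were lower by small amounts (-0.38 ± 0.14 and -0.29 ± 0.10), with calls lost in several alternatives (adjusted p up to 0.142 for each with 1 control library left out), and their list had 1 lower member without replicate 3 of every group. Of 8 genes of DNA methylation, 2 were higher, 2 lower and 4 did not pass, with 1 lower without replicate 3 of every group. Uhrf1, which guides the maintenance methyltransferase to newly copied DNA, was at 38.2, 39.8 and 35.7 against 113, 131 and 102 CPM (log2 fold change 1.61 ± 0.09, adjusted p = 1.52e-09), and Dnmt1, that methyltransferase, at 193, 208 and 209 against 278, 283 and 285 CPM (log2 fold change 0.47 ± 0.06, adjusted p = 1.75e-05). Both also belong to the replication list.

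The same gates in the dKO libraries share no library with the control comparison. There 5853 genes (43.7%) passed, and 4526 were called in the same direction in both genotypes, 74.7% of the control calls and 77.3% of the dKO calls. Only 9 were called in opposite directions. Over all 13383 genes the log2 fold changes in the 2 genotypes correlated with Pearson's r = 0.895 and Spearman's rho = 0.817, a description across genes, which are not independent. Zbtb7b had a log2 fold change of -11.62 ± 0.61 in control and -10.39 ± 0.61 in dKO libraries, Runx3 of 2.09 ± 0.10 and 1.69 ± 0.10, Itgae of 9.46 ± 0.14 and 9.62 ± 0.15, Klf2 of 3.85 ± 0.14 and 3.18 ± 0.14, and Ifit3 of 5.003 ± 0.29 and 4.63 ± 0.26. The cytotoxic list had 14 higher in dKO against 16 in control, the mature-stage list 19 in each, the interferon list 42 against 38, the replication list 42 in each, and the mitosis list 32 against 34. Other lists repeated less closely. Mitochondrially encoded genes had 12 higher in dKO against 2 in control, and beta V and J genes 9 lower against 19. Alpha segments had 21 higher and 8 lower in dKO against 10 and 14. In these last lists no member passed the test of the difference between genotypes. The difference of the differences passed for 58 genes (0.433%), a count that ran from 41 to 233 over the alternatives.

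**Figure D5:**
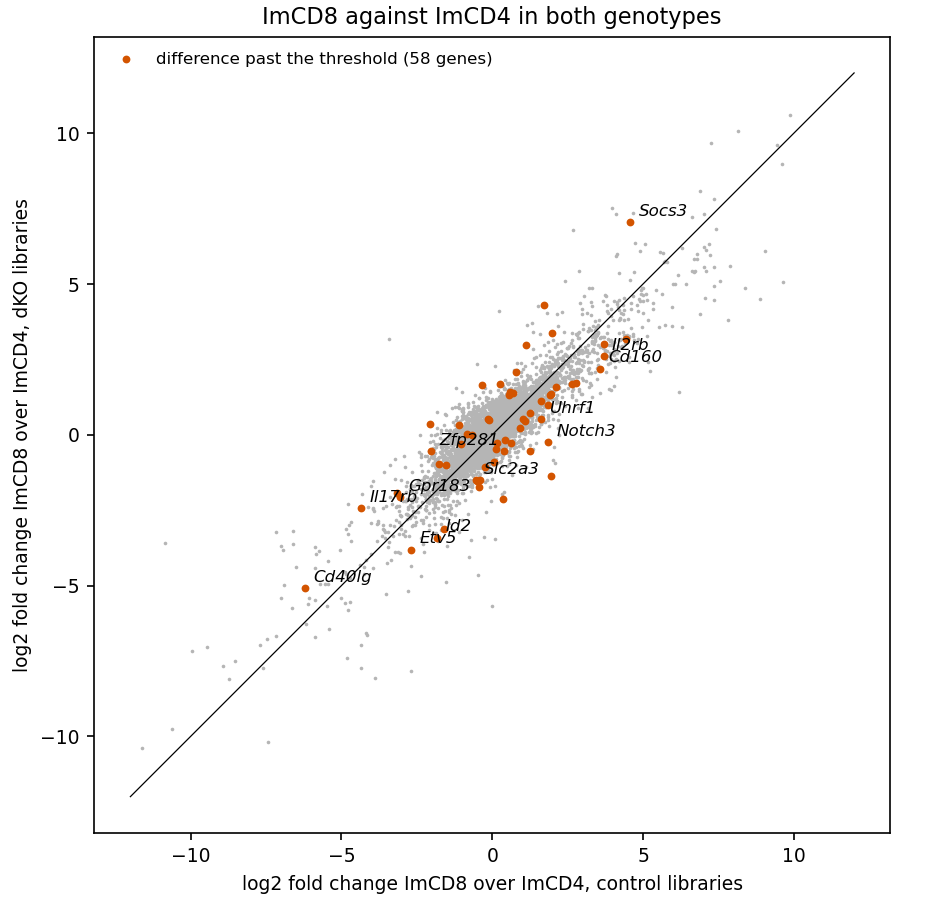
Log2 fold change of ImCD8 over ImCD4 in control libraries (horizontal) and in dKO libraries (vertical), 1 point per gene for 13383 genes, with the line of equality; orange points are the 58 genes whose fold change differed between genotypes at an adjusted p of 0.05. Most genes with large fold changes lie in the same quadrant in both genotypes (Pearson's r = 0.895), and Socs3 lies farther from 0 in dKO while Zfp281 lies closer to it.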

How the data were processed

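RNA-seq was made from sorted thymocyte populations with RNeasy Plus Micro and Clontech SMARTer low-input kits, per the labels' protocols. The submitters' processing notes name cutadapt 1.18, STAR 2.6.1, HTSeq and mm10; the sources used here give neither the annotation nor the strand option. Reads of genes that overlap or lie antisense to each other are therefore uncertain. The authors deposited raw counts per gene symbol, 53656 genes and 5 summary rows per library. Those 5 rows were left out of all fits and library sizes: in the control libraries reads outside genes were 10.6% to 16.4% of those tallied, ambiguous reads 5.37% to 5.82% and multimapped reads 4.00% to 4.76%. Over all 12 libraries, reads counted to genes were 7315833 to 10943143.

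Groups follow titles. Separate animals are not stated for the libraries of a group, and p-values then measure only the spread among these libraries, possibly technical. No within-group pair was close enough to be the same library deposited again: chi-square divided by its degrees of freedom was 3.53 or more over the 12 pairs. Counts were fitted in R 4.3.3 with edgeR 4.0.16 (filterByExpr, minimum count 10 and total 15; TMM; glmQLFit robust and glmQLFTest; 4 group means over all 12 libraries, 8 residual degrees of freedom; two-sided, Benjamini-Hochberg over 13383 genes). CPM use the summed counts of tested genes times the TMM factor. Bounds against a group with no count use a floor of 3 counts over the group and cover counting error only. Alternatives were RLE or library-size scaling, other filters, DESeq2 1.42.0, limma-voom (limma 3.58.1), the 6 control libraries alone, each library left out, replicate 3 of every group left out or modelled, and a 2-fold minimum. Bounds without ImCD8 replicate 3 were added after seeing the data.

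The text names Zfp148 and Zfp281, the gate markers, members of the CD8, CD4 and lineage-factor lists, the 15 largest rises and falls (at least 5 CPM, no overlap; predicted names, pseudogenes, receptor segments and sex-linked genes left out), up to 6 called members each way and 3 not passed in other lists, and leading markers of other cells. Members, lists and this rule were chosen with earlier results of these data known. Some genes that the rule selects are not reported here. Sequence windows are RefSeq's (GRCm38.p6), and gene positions GENCODE M21's, in which 10790 of 13383 tested symbols had a single match.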

Additional observations from a re-analysis of the deposited data

Results flagged for a closer look

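For 12 of the genes named here the ImCD8 against ImCD4 difference itself differed between dKO and control libraries in edgeR's quasi-likelihood test (values are dKO minus control on the log2 scale, ± SE, Benjamini-Hochberg over all genes, 3 libraries per group). Zfp281, a targeted gene that was lower in both dKO groups, had a value of 1.49 ± 0.19, adjusted p = 0.0017. Among CD4-side genes the difference was less negative in dKO for Cd40lg (1.13 ± 0.22, adjusted p = 0.0265), Gpr183 (0.99 ± 0.16, adjusted p = 0.00976) and Il17rb (1.92 ± 0.32, adjusted p = 0.0161). It was more negative for Id2 (-1.57 ± 0.20, adjusted p = 0.00305), Slc2a3, a glucose transporter (-0.94 ± 0.12, adjusted p = 0.00143), and Etv5 (-1.12 ± 0.20, adjusted p = 0.0144). Among genes higher in control ImCD8 it was smaller in dKO for Il2rb (-1.07 ± 0.11, adjusted p = 1.59e-04), Cd160 (-1.39 ± 0.16, adjusted p = 6.67e-04) and Uhrf1, which maintains DNA methylation (-1.09 ± 0.13, adjusted p = 7.48e-04), and larger for Socs3 (2.48 ± 0.48, adjusted p = 0.0308). Notch3 was higher in control ImCD8 (1.84 ± 0.26) and had a log2 fold change of -0.25 ± 0.33 in dKO, a difference of -2.10 ± 0.42, adjusted p = 0.0342. The ImCD8 genotype labels are opposite to the titles, and these directions rest on the titles.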

How the results depend on the processing

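The number of genes called between the control groups was 5323 to 5569 with any 1 control library left out, 5383 under a filter of 5 CPM, 5453 without replicate 3 of every group, 5776 in DESeq2, 6025 in the 6 control libraries alone, 6070 with RLE scaling, 6221 with library size alone, 6307 with no filter, 6497 in limma-voom and 6831 with a model term for replicate 3 of every group, against 6058, and 982 when a change of more than 2-fold was required, a stricter question. Genes called the same way in both genotypes were 4099 to 4222 with 1 control library left out. The number of genes whose difference differed between genotypes was the least stable: against 58, it was 41 to 47 with 1 control library left out, 233 with no filter on low counts, 134 in DESeq2, 106 without replicate 3 of every group and 200 with a model term for it. The cause was not tested. Of 431 named genes tested, 372 kept their side of the threshold in every alternative that tested them (13 to 15 of 15 for each gene), 36 lost a call in at least 1, 23 gained one and none reversed. Of 1260 list counts under alternatives, 1209 stayed within 1.5 times; among the larger moves the cytotoxic list fell from 16 to 10 higher under a filter of 5 CPM, which leaves fewer members tested, and without replicate 3 of every group the sterol list fell from 5 to 2 lower. The labels give the libraries running numbers and pair none of them, so no paired fit was made; replicate 3 lay on the same side of the third component of all 12 libraries in all 4 groups, and the model term above was fitted for it. At this depth a group with no count allows up to 0.111 CPM in ImCD4 and 0.118 CPM in ImCD8.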
